A study of Danio rerio with 6 samples.

Results

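The genes described here belong to families of enzymes for histone lysine methylation, demethylation or deacetylation, though some members act on other targets. They were chosen by name and level: symbols starting with kdm, kmt, setd, hdac or sirt and a digit, with 10 or more normalized counts in at least 3 of 6 libraries. Such a symbol was carried by 32 of the 14781 genes measured, and 31 met the level rule. The one left out, kdm2ba, was at 0 in all 6 libraries, while the lowest that met it, setd6 and hdac11, reached the level in 4 libraries. Many other genes of these families were not matched in the deposited table and are not covered. Among them were kmt2d, setd2, kdm5a, kdm6a, hdac6 and sirt1. The libraries came from red-fluorescent cells sorted from eyes of zebrafish (Danio rerio) larvae 5 days post-fertilization. All larvae used carried the transgene thrb:tdTomato, in which thrb, the gene of a thyroid hormone receptor found in red cones, drives the fluorescent protein. One group of 3 libraries was WT and the other 3 were labelled samd7-/-, from crosses of parents both homozygous for the stl888 allele of samd7. Each library pooled 40 to 50 eyes of 20 to 25 larvae of its own clutch and 10000 to 25000 sorted cells. Per the labels genotyping covered only some larvae of a clutch, and genotype and parental line cannot be told apart because the clutches of each genotype had their own parents.

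Samd7 is a photoreceptor protein of the Polycomb family, which keeps genes silent through methylation of lysine 27 and ubiquitination on histones. Many of the enzymes followed here act around that system. SET-domain enzymes of the KMT2 and SETD1 families write methylation on lysine 4 of histone H3, a mark of active genes that opposes Polycomb, and the KDM5 and KDM1 families erase it. KDM6 enzymes erase the Polycomb mark itself, KDM4 enzymes act on lysines 9 and 36, and histone deacetylases (HDAC) and sirtuins remove acetyl groups, largely within repressor complexes or, for several sirtuins, in mitochondria.

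Reads recovered over the genes of the table summed to between 13435570 and 20369266 per library, and values below are normalized counts, that is reads divided by each library's size factor. Levels are given as mean ± SD with n = 3 libraries per genotype, and differences are log2 of the libraries labelled samd7-/- minus WT, on the log2(value + 1) scale, with limma p-values adjusted over all 9886 genes tested. The transcript of samd7 was 7683 ± 896 in WT and 24329 ± 543 in the libraries labelled samd7-/-, which cannot serve as a check of the genotype, and the latter are called stl888-labelled libraries below. Of the red-cone markers thrb, opn1lw1, opn1lw2, arr3a, gngt2b, pde6c and gnat2, 4 were lower and 1 was higher there. WT library 2 and stl888-labelled library 3 lay apart from the others of their groups on the second principal component, at 75.5 and 75.0 against -66.1 to -5.15 for the other 4 libraries. Marker lists of other cells also differed, where over all genes tested limma called 1.26% higher and 3.9% lower. Of 8 markers of dividing cells 3 were higher in the stl888-labelled libraries and 0 lower by limma (5 called by DESeq2), and their summed level was 8911 to 11686 in WT and 16953 to 18429 in the stl888-labelled libraries. Of 8 Müller glia markers 1 was higher by limma and 4 were called by DESeq2 (sums 54746 to 80969 and 89834 to 168313), of 6 horizontal-cell markers tested 2 were higher and 1 lower (30405 to 37501 and 23733 to 29904), and of 6 amacrine markers tested 2 were higher (12407 to 18005 and 16119 to 18273). The horizontal-cell sum rested mostly on ndrg1b, the gene called lower, at 27799 ± 3637 in WT and 13662 ± 5181 in the stl888-labelled libraries. The other 5 horizontal-cell markers had log2 differences above 0, from 0.63 to 1.31. By edgeR 2 horizontal-cell markers and 1 amacrine marker were called. Of the amacrine markers tested 4 had log2 differences above 0, while slc32a1 (-0.46) and the low gene slc6a9 (-2.88) were below 0. The amacrine sum rested mostly on gad1b (6760 ± 1761 in WT, 8083 ± 1133 in the stl888-labelled libraries) and slc32a1 (5328 ± 1600 and 3810 ± 625), neither of them called. None of the tested rod (7), bipolar (7), ganglion-cell (6), pigment epithelium (5) or microglia (5) markers was called by limma or edgeR (2 of 30 at an unadjusted limma p under 0.05, and 1 by DESeq2, the rod gene saga), and the ganglion-cell marker nefma was at 0 in all libraries. Rod levels were uneven within each genotype, with sums of 12028.5 to 81722.1 in WT and 10830.3 to 61295.5 in the stl888-labelled libraries. The rod gene rho was at 9063, 57776 and 70290 in WT and at 8408, 7825 and 53889 in the stl888-labelled libraries. Log2 differences were below 0 for all 7 rod markers (median -0.99) and above 0 for all 7 bipolar markers (median 1.11). The part of these cells in the results below was not tested, and in such bulk samples fewer cells of a type and less RNA per cell cannot be told apart.

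One of the 31 enzyme genes changed between the genotypes. The gene was setd7, which fell more than 2-fold from its WT level, and 30 did not pass the test. That is 3.23% of these genes lower and 0% higher, against a background of 3.9% of all genes tested lower, 1.26% higher and 5.17% in either direction. At an unadjusted limma p under 0.05 there were 5 of the enzyme genes (16.1%), against 19.1% of all genes. The genotypes did not overlap for 3 of the 31 genes (9.68%), setd7, setd6 and setd1ba, against 24.5% of all genes. Both counts include setd6, which met the level rule mainly through the stl888-labelled group, so its separation partly follows from that rule. The median log2 difference was 0.01 over the 31 genes, with 16 above and 15 below 0, and 0.05 over all genes. Scaling by library totals in place of the authors' size factors moved the median of all genes up by 0.23 and that of the 31 genes to 0.24.

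**Figure D1:**
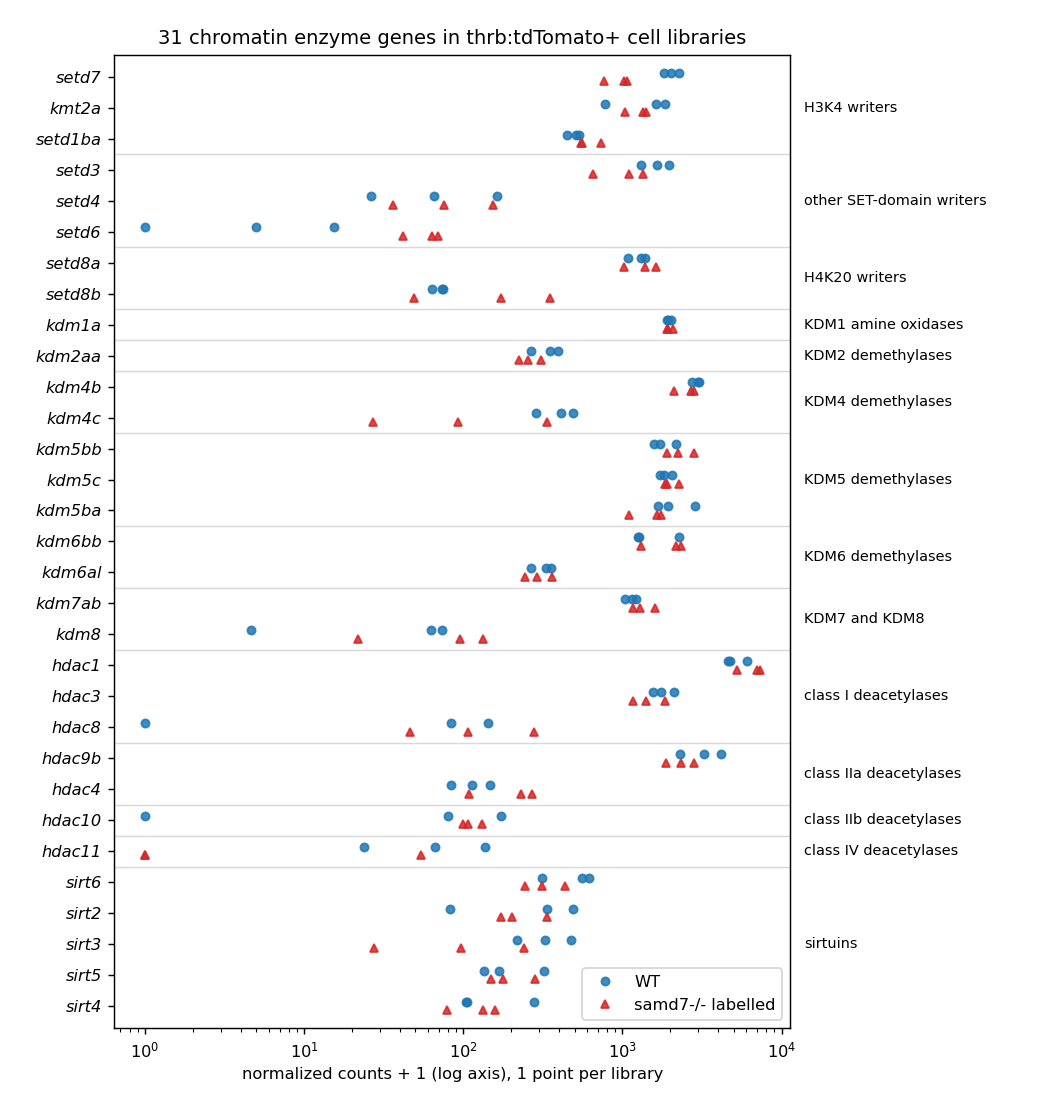
Normalized counts plus 1 on a log axis for the 31 enzyme genes, 1 row per gene, grouped by role, with 1 point per library (circles WT, triangles libraries labelled samd7-/-; 3 each). The points of setd7 at the top separate by genotype, while for most other genes, such as kdm1a, they overlap, and low genes such as hdac11 and setd6 scatter down to 0.

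Among the writers of lysine 4 methylation on histone H3, setd7 was the gene that fell. Its enzyme adds a single methyl group to lysine 4 and, in mammals, also methylates proteins other than histones. The level of setd7 was 2016, 2279 and 1833 normalized counts in WT libraries 1 to 3 and 1068, 1023 and 761 in stl888-labelled libraries 1 to 3. Every stl888-labelled library was below every WT library. The means were 2043 ± 224 and 951 ± 166, a ratio of 0.465, and the log2 change was -1.11 (SE 0.23, 95% interval -1.60 to -0.62, adjusted p = 0.0121). The authors' deposited table gives setd7 a log2 fold change of -1.10 with an adjusted p of 0.000225, the one adjusted p under 0.05 in that table among the 31 genes. The setd7 call was lost with 1 library left out (without WT library 2, log2 difference -1.03, adjusted p = 0.0727) and when library totals set the scale (log2 difference -0.88, adjusted p = 0.0569).

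Of 10 listed writers of the same mark 3 were matched in the table, and those other than setd7 did not pass. The gene kmt2a encodes a trithorax-type methyltransferase of the MLL family, and its level was 1852, 777 and 1620 in WT against 1039, 1350 and 1401 in the stl888-labelled libraries. The lowest value was WT library 2, and the groups overlapped (log2 difference -0.08, 95% interval -0.74 to 0.58, adjusted p = 0.923). Its sign turned when library totals set the scale (0.15) and when WT library 1 (0.16), WT library 3 (0.06) or stl888-labelled library 1 (0.05) was left out. The gene setd1ba encodes a SETD1-type writer, the main source of trimethylated lysine 4 in many cells. Its level was 529, 513 and 445 in WT against 559, 546 and 728 in the stl888-labelled libraries. These groups did not overlap, but the gap between WT library 1 and stl888-labelled library 2 was small, and the log2 difference of 0.29 (SE 0.30) had an adjusted p of 0.662.

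**Figure D2:**
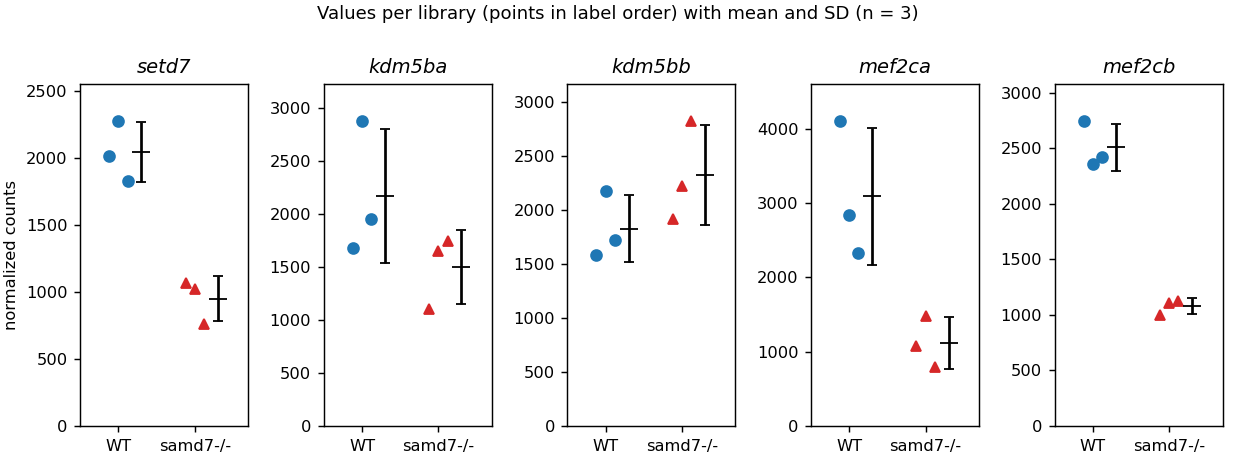
Normalized counts per library for setd7, the KDM5 paralogs kdm5ba and kdm5bb and the MEF2 genes mef2ca and mef2cb, with mean and SD (n = 3) beside the points. For setd7, mef2ca and mef2cb all 3 stl888-labelled points lie below all 3 WT points, whereas the points of kdm5ba and kdm5bb overlap between genotypes.

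The remaining SET-domain genes hold both a well-measured member, setd3, and a barely detected one, setd6, neither of which passed. The enzyme made from setd3 methylates a histidine of actin in mammals. Its level was 1310, 1653 and 1961 in WT against 1106, 656 and 1338 in the stl888-labelled libraries. Only WT library 1 and stl888-labelled library 3 overlapped, and the log2 difference of -0.71 (SE 0.28, 95% interval -1.32 to -0.10) had an adjusted p of 0.185. The product of setd6 methylates the RELA subunit of NF-kB in human cells. In WT its level was 14.4, 0 and 3.99, and in the stl888-labelled libraries 62.8, 68.0 and 41.0. All stl888-labelled values lay above all WT values, yet setd6 met the level rule mainly through the stl888-labelled group, which alone supplied 3 of its 4 libraries at 10 or more. The limit that a count of 0 allows is 3 reads, which is 2.93 normalized counts in WT library 2. With a log2 difference of 3.74 and a 95% interval of 0.16 to 7.33, setd6 had an adjusted p of 0.239. The estimate for setd6 ran from 2.13 to 4.67 over the alternatives. The gene setd4 varied as much within as between genotypes, with 25.3 to 161 in WT and 35.1 to 152 in the stl888-labelled libraries (log2 difference 0.19, SE 0.96).

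Genes listed as setd8a and setd8b are named kmt5aa and kmt5ab in the RefSeq gene table (GRCz12tu) and encode the enzymes that place the first methyl group on lysine 20 of histone H4, a mark tied to the cell cycle. The level of setd8a was 1078, 1316 and 1392 in WT against 1030, 1615 and 1376 in the stl888-labelled libraries. Its groups overlapped fully (log2 difference 0.07, 95% interval -0.45 to 0.59, adjusted p = 0.917). The paralog setd8b was at 73.4, 72.2 and 62.6 in WT and at 350, 171 and 48.0 in the stl888-labelled libraries. Here the WT libraries lay close together, while the stl888-labelled ones spread over a range that included them (log2 difference 1.03, SE 0.79, adjusted p = 0.535). The enzymes that extend the mark are listed under the older symbols suv420h1 and suv420h2 and were outside the name rule. The level of suv420h2 went from 1660 ± 277 to 1063 ± 142 with no overlap (log2 difference -0.64, adjusted p = 0.143), and suv420h1 had a log2 difference of -0.04 (adjusted p = 0.950).

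Of the 11 lysine demethylase genes 0 passed by limma, edgeR or DESeq2, and at an unadjusted limma p under 0.05 there was 1, kdm4c. The limma shares over all genes tested were 5.17% and 19.1%. The steadiest of the 31 genes was kdm1a, also known as LSD1, an amine oxidase that removes methyl groups from lysine 4 within the CoREST repressor complex. The level of kdm1a was 1896, 2017 and 1925 in WT against 2072, 1938 and 1907 in the stl888-labelled libraries. The coefficient of variation was 3.27% in WT and 4.46% in the stl888-labelled libraries, and the groups overlapped. The log2 difference was 0.02 with a 95% interval of -0.39 to 0.43, an interval that leaves out a 2-fold change either way (adjusted p = 0.972).

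The KDM5 enzymes erase trimethylated lysine 4, and 3 of their genes were measured at similar normalized counts. The level of kdm5c was 1868 ± 162 in WT and 2011 ± 233 in the stl888-labelled libraries (log2 difference 0.10, adjusted p = 0.837). Paralogs kdm5ba and kdm5bb had differences of opposite sign, neither of which passed. The level of kdm5ba was 1672, 2875 and 1947 in WT against 1101, 1646 and 1741 in the stl888-labelled libraries (log2 difference -0.52, SE 0.26, adjusted p = 0.291). That of kdm5bb was 1584, 2176 and 1720 in WT against 1916, 2223 and 2825 in the stl888-labelled libraries (0.34, SE 0.22, adjusted p = 0.447). Each gene overlapped between the genotypes by itself, but the log2 ratio of kdm5bb over kdm5ba within a library did not. This ratio was -0.08, -0.40 and -0.18 in WT against 0.80, 0.43 and 0.70 in the stl888-labelled libraries. It does not depend on library scaling, and the mean moved by 0.86 (two-sided exact permutation p = 0.1, the smallest that 3 against 3 libraries allow). The pair was chosen after its values were seen, and how the authors counted reads shared between paralogs is not given in the sources used here. For the other paralog pair, setd8a over setd8b, the log2 ratio was 4.16 ± 0.30 in WT and 3.20 ± 1.63 in the stl888-labelled libraries (two-sided exact permutation p = 0.5).

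The KDM4 enzymes act on methylated lysines 9 and 36 of histone H3. Their more highly measured gene kdm4b was at 2719, 3038 and 2988 in WT and at 2804, 2110 and 2708 in the stl888-labelled libraries. The groups overlapped at WT library 1 (log2 difference -0.21, 95% interval -0.62 to 0.21, adjusted p = 0.617). The gene kdm4c was at 491, 287 and 413 in WT and at 91.6, 337 and 26.2 in the stl888-labelled libraries. In stl888-labelled libraries 1 and 3 kdm4c was far below WT, while library 2 lay within the WT range. The log2 difference was -2.03 (SE 0.74, 95% interval -3.62 to -0.45) with an adjusted p of 0.143. Without stl888-labelled library 2, the one within the WT range, the value for kdm4c was -2.95 and passed (adjusted p = 0.0294). In the other 16 of 17 alternatives kdm4c did not pass, as without stl888-labelled library 3 (-1.13, adjusted p = 0.308).

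Enzymes that bear on the Polycomb marks were measured with differing precision. KDM6 enzymes remove methyl groups from lysine 27 of histone H3, the mark that Polycomb writes. Their gene kdm6bb was at 2262, 1278 and 1257 in WT and at 1300, 2175 and 2318 in the stl888-labelled libraries. In each group 1 library differed from the other pair, and the ranges overlapped nearly whole (log2 difference 0.28, 95% interval -0.33 to 0.89, adjusted p = 0.648). For kdm6al, a paralog of the UTX demethylase, levels were 317 ± 46.5 and 299 ± 59.2 (log2 difference -0.09, 95% interval -0.92 to 0.74). The mammalian KDM7 enzymes remove methyl groups from lysines 9 and 27, and kdm7ab was at 1131 ± 94.9 in WT and 1348 ± 230 in the stl888-labelled libraries (log2 difference 0.24, adjusted p = 0.627). Mammalian KDM2B brings a Polycomb complex to unmethylated CpG islands; kdm2ba, one of its zebrafish paralogs, was the gene at 0 in all libraries, and the other, kdm2bb, was not analysed here. The related kdm2aa, for a lysine 36 demethylase, was at 335 ± 64.2 and 262 ± 43.1 (log2 difference -0.35, adjusted p = 0.696). The low gene kdm8 had 3.61 to 72.2 in WT and 20.9 to 131 in the stl888-labelled libraries (log2 difference 1.24, 95% interval -1.64 to 4.12).

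**Figure D3:**
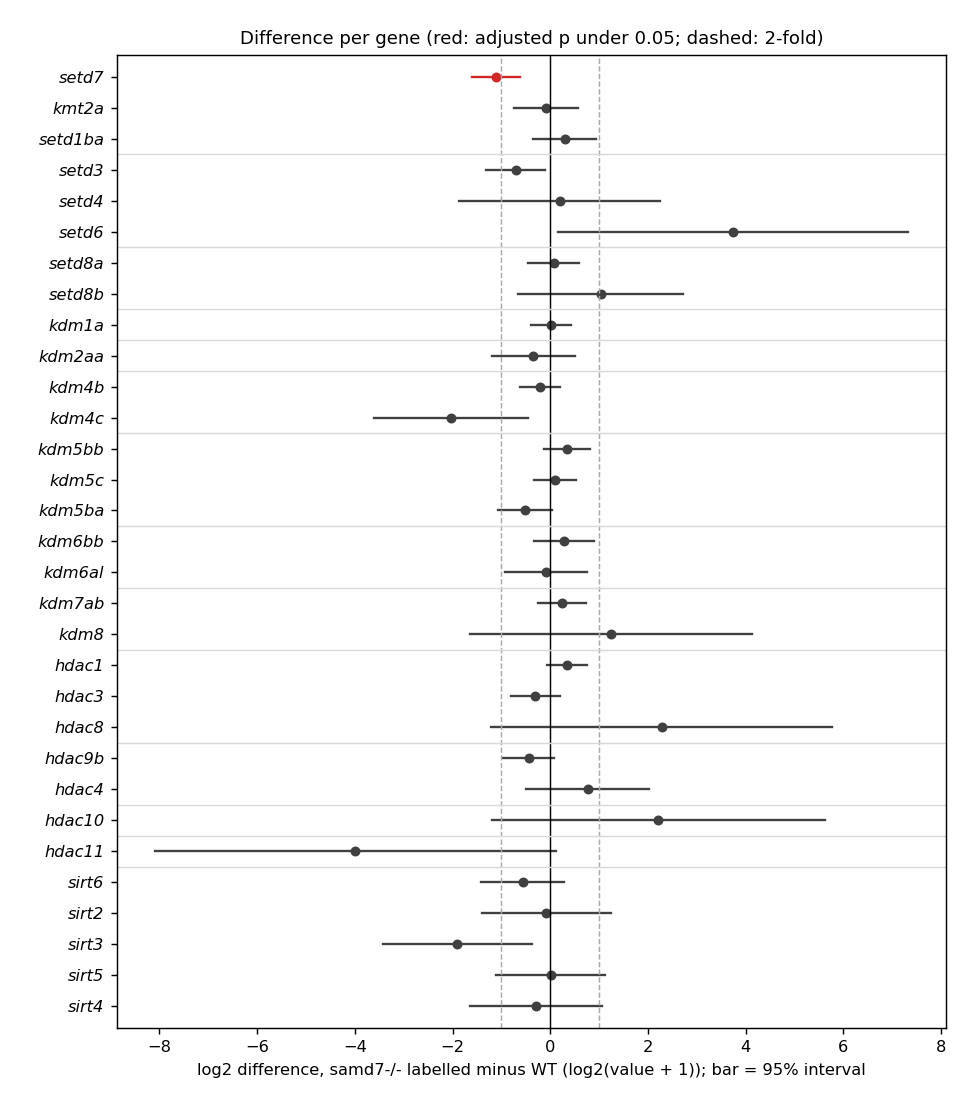
Log2 difference (libraries labelled samd7-/- minus WT, log2(value + 1) scale) with its 95% interval for each of the 31 genes, grouped by role as in the plot of levels, with dashed lines at a 2-fold change. The interval of setd7, in red, lies wholly below 0, and so do those of setd3, kdm4c and sirt3, which did not pass after adjustment. That of setd6 (0.16 to 7.33) lies wholly above 0, and setd6 did not pass either. This gene met the level rule mainly through the stl888-labelled group.

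None of the 7 classical deacetylase genes passed by limma, edgeR or DESeq2, though DESeq2 gave no adjusted p for hdac10 and hdac11. At an unadjusted limma p under 0.05 there were 0 of the 7. The limma shares over all genes tested were 5.17% and 19.1%. The class I enzymes made from hdac1 and hdac3 work in the nucleus within the NuRD, SIN3, CoREST and NCoR complexes. The gene hdac1, which zebrafish retinal progenitors need to leave the cell cycle, took the most reads of the 31. The level of hdac1 was 4608, 4750 and 6047 in WT against 7290, 6971 and 5282 in the stl888-labelled libraries. WT library 3 lay above stl888-labelled library 3, so the groups overlapped, and the log2 difference of 0.34 (SE 0.19, 95% interval -0.07 to 0.75) had an adjusted p of 0.369. The gene hdac3, for the catalytic subunit of NCoR complexes, was at 1801 ± 278 in WT and 1475 ± 346 in the stl888-labelled libraries (log2 difference -0.30, adjusted p = 0.539). Levels of hdac8 were low and uneven, with 83.0, 141 and 0 in WT against 45.4, 277 and 105 in the stl888-labelled libraries, and the 95% interval ran from -1.20 to 5.77.

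Class IIa deacetylases bind MEF2 transcription factors and repress their targets. Of 6 listed genes of the class 2 were matched in the table, hdac9b and hdac4. The more highly measured was hdac9b, at 2301, 3237 and 4137 in WT against 2820, 1867 and 2324 in the stl888-labelled libraries. WT library 1 lay within the stl888-labelled range, and the log2 difference of -0.44 (SE 0.24, 95% interval -0.96 to 0.07) had an adjusted p of 0.350. The gene hdac4, whose product supports photoreceptor survival in mice, was at 146, 112 and 82.5 in WT against 230, 270 and 107 in the stl888-labelled libraries. Mutant-labelled library 3 lay within the WT range of hdac4 (log2 difference 0.76, SE 0.58, adjusted p = 0.534). Of class IIb, hdac10, a polyamine deacetylase, was at 79.4, 172 and 0 in WT against 106, 97.9 and 130 in the stl888-labelled libraries. Its log2 difference of 2.21 (adjusted p = 0.505) rested on the 0 of WT library 3 and was -0.08 without that library. The class IV gene hdac11 was at 22.9, 65.3 and 136 in WT and at 0, 53.0 and 0 in the stl888-labelled libraries. For the libraries at 0 the limits were 2.48 and 2.62 normalized counts, and the log2 difference of -3.99 had a 95% interval of -8.10 to 0.12 (adjusted p = 0.276). With a pseudocount of 10 it was -1.95, and the authors' log2 fold change is -2.08. The gene hdac11 met the level rule mainly through WT, as only library 2 of the stl888-labelled group reached the level.

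Sirtuins are deacetylases that consume NAD. Of 5 sirtuin genes 0 passed by limma, edgeR or DESeq2, and 1, sirt3, had an unadjusted limma p under 0.05. The limma shares over all genes tested were 5.17% and 19.1%. The mitochondrial deacetylase gene sirt3 was at 325, 472 and 216 in WT and at 26.4, 240 and 95.9 in the stl888-labelled libraries. Mutant-labelled libraries 1 and 3 lay below all WT libraries, and library 2 lay just above WT library 3. The log2 difference was -1.90 (SE 0.71, 95% interval -3.43 to -0.37) with an adjusted p of 0.156. The nuclear enzyme gene sirt6, which acts on acetylated lysine 9, was at 310, 618 and 559 in WT against 244, 312 and 437 in the stl888-labelled libraries (log2 difference -0.56, SE 0.40, adjusted p = 0.497). Of the 31 genes only sirt6 lies on the same chromosome as samd7 in the RefSeq gene table, and the part of this in its values was not tested. The other mitochondrial genes, sirt4 and sirt5, had log2 differences of -0.29 (SE 0.63) and 0.01 (SE 0.52). That of sirt2, for a mainly cytoplasmic tubulin deacetylase, was -0.08 (SE 0.61). The sign turned in 3 of 17 alternatives for sirt4 and in 5 each for sirt5 and sirt2. Within WT, sirt2 ranged from 81.9 to 491, with the lowest value in library 2.

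How small a difference these libraries can show depends on level. The 14 genes at a mean of 1000 normalized counts or more had 95% intervals between 0.82 and 1.32 wide on the log2 scale, and for 11 of them the interval lay inside a 2-fold change in both directions. The 3 exceptions were setd7, setd3 and kdm5ba. Of 3 genes between 300 and 1000 normalized counts, setd1ba and kdm6al also had such an interval. Of the 14 genes under 300 none did, their intervals being 1.69 to 8.22 wide, and 8 of them had estimates beyond a 2-fold difference in either direction without passing. Of those 8, hdac8 (0.93), hdac10 (0.41) and kdm8 (0.85) had log2 fold changes inside 2-fold in the authors' table, unlike the others. A 2-fold change lay outside the interval for 13 of 31 genes (41.9%), against 22.4% of all genes tested.

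**Figure D4:**
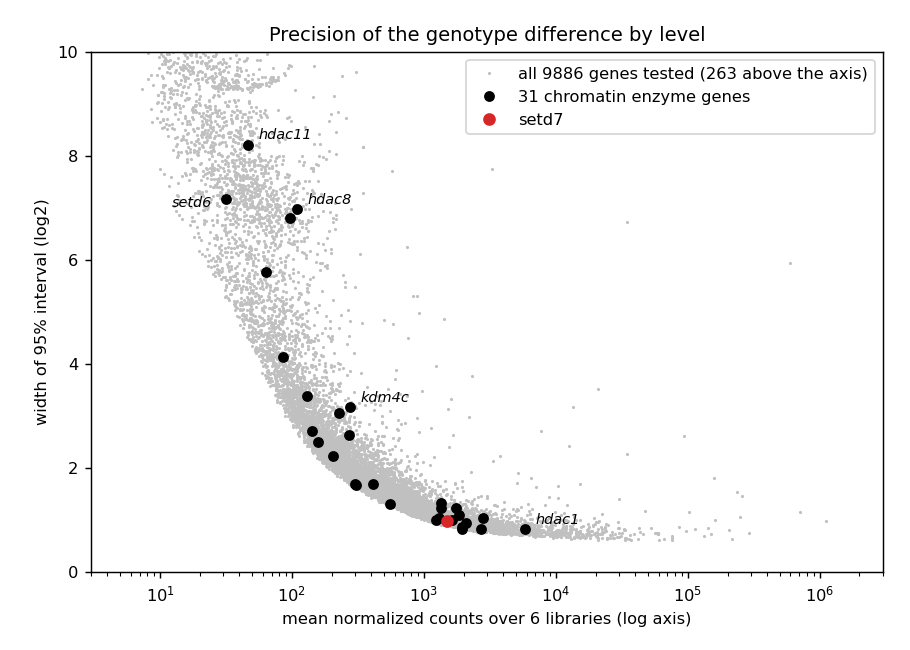
Width of the 95% interval of the log2 difference against mean normalized counts over the 6 libraries (log axis), for all 9886 genes tested (grey, 263 above the axis) and the 31 enzyme genes (black; setd7 in red). Intervals narrow from 8.22 at hdac11 to 0.82 at hdac1, and setd7 sits among the precisely measured genes.

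Partners of these enzymes were read from 10 lists, of which 96 of 131 genes were matched in the table and 90 were tested. Of the 90 genes 1 rose and 2 fell, beside 1.26% of all genes tested higher and 3.9% lower. Both decreases were in the MEF2 factors, the DNA-binding partners of class IIa deacetylases, where 2 of 4 fell and 0 rose. The level of mef2ca was 4106, 2841 and 2322 in WT against 1081, 1476 and 789 in the stl888-labelled libraries (log2 change -1.47, SE 0.27, adjusted p = 0.00599). For mef2cb the values were 2748, 2358 and 2419 in WT against 1001, 1112 and 1129 in the stl888-labelled libraries (-1.21, SE 0.20, adjusted p = 0.00305). For both genes every stl888-labelled library lay below every WT library. The remaining MEF2 genes mef2aa (log2 difference -0.63, adjusted p = 0.220) and mef2d (-0.19, adjusted p = 0.659) did not pass.

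Of 10 genes listed under NuRD the histone-binding rbbp4 rose (log2 change 1.07, adjusted p = 0.00664), and 0 fell. At an unadjusted limma p under 0.05 there were 4 of the 10, against 19.1% of all genes tested. The genotypes did not overlap for 4 of the 10, against 24.5% of all genes. The gene rbbp4 was entered in the NuRD list alone, so counts for the other complexes, SIN3 included, leave it out. DESeq2 called mbd3b, of the methyl-CpG-binding domain family, as well, for which limma gave a log2 difference of 0.94 with no overlap (adjusted p = 0.0804).

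In the other partner lists 0 of 76 genes passed by limma, edgeR or DESeq2, and 8 had an unadjusted limma p under 0.05. Over all genes tested limma gave 5.17% and 19.1%. COMPASS complexes hold the KMT2 and SETD1 enzymes, and their list was not limited to core subunits. The median log2 difference was 0.29 for 12 COMPASS genes, 0.54 for 6 CoREST genes and 0.25 for 12 SIN3 genes. It was 0.12 for 14 other lysine methyltransferases, 0.007 for 8 other demethylases, -0.12 for 10 lysine acetyltransferases and 0.61 for 9 arginine methyltransferases. For NuRD it was 0.26, for 5 NCoR genes -0.02 and for MEF2 -0.92, beside 0.05 for all genes. Within the enzyme genes themselves the median was 0.13 over the 8 SET-domain genes, 0.02 over the 11 demethylases, 0.34 over the 7 classical deacetylases and -0.29 over the 5 sirtuins.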

How the data were processed

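The submitters' processing notes name build danRer10 and the tools R 4.1.3, DESeq2 1.34.0, HTSeq 0.9.1, STAR 2.7.2b and Trim Galore 0.6.1. Neither annotation nor strand setting is given in the sources used here. The authors deposited 1 table: for each library a signal (read counts over a size factor), and for each gene both genotype means, their log2 fold change and its adjusted p-value. In each library 100% of values above 0 were whole multiples of 1 step to within 0.01 read, so whole reads were recovered.

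Values were taken as log2(value + 1), filtered at 10 normalized counts in at least 3 libraries and fitted on genotype with limma 3.58.1 (trend, robust; R 4.3.3). A gene was called at a Benjamini-Hochberg adjusted p under 0.05 over 9886 genes. The same reads went into edgeR 4.0.16 and DESeq2 1.42.0, of which edgeR called 379 genes and limma 511. Scripts were tested on simulated data. Libraries were made from 300 pg of RNA with 14 and 15 amplification cycles, and the labels' protocols describe no molecular identifiers, so limits of 3 reads (2.24 to 3.99 normalized counts) cover counting error only.

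The genes and lists were chosen with earlier results of these data known. Symbols are as deposited, and all 31 matched the RefSeq gene table. No coordinates or sequences are given, and 1 partner gene is not reported here. Genes named in full were those called, those without overlap and at least 2-fold apart, the most abundant of each role, the 5 nearest the threshold and called partners; the others were named after their values were seen.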

Additional observations from a re-analysis of the deposited data

How the results depend on the processing

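The number of enzyme genes called was 1 with edgeR, DESeq2, TMM scaling, either pseudocount (0.5 or 10), no filter, a mean of at least 50 and the replicate block. It was 0 with library totals and 0 with no trend and no robust option, where 27 of all genes were called. With 1 library left out it ranged from 0 to 2, and it was 0 without both WT library 2 and stl888-labelled library 3, a setting added after the data were seen, with 294 of all genes called. The call of setd7 was kept in 13 of 17 settings, with log2 changes of -1.20 to -0.88 and adjusted p from 0.000275 to 0.177 (no trend). With no trend the calls of mef2ca, mef2cb and rbbp4 were lost as well (adjusted p 0.137 to 0.203), and without both libraries that of mef2ca was (0.0527). All genes called were 511 by limma, 870 by DESeq2 and 225 to 573 with 1 library left out. Library totals gave 415 higher and 252 lower (62.2% higher against 24.5%).

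Of the 31 genes 12 changed sign in some setting without passing there. With libraries left out log2 differences ranged from -0.081 (without WT library 3) to 3.63 for hdac10, from -0.017 (without stl888-labelled library 1) to 0.069 (without both) for kdm1a and from -0.076 (without stl888-labelled library 2; -0.039 without WT library 1) to 0.25 for setd8a. With library totals kdm4b was at 0.024, and kdm6bb was at -0.0038 without both libraries and up to 0.56 without 1. The cause was not tested. Same-numbered libraries had correlations of 0.05, -0.03 and 0.01 in their deviations, and differently numbered ones -0.05 to 0.04. Such correlations cannot tell whether same-numbered libraries were handled together. The replicate block gave 431 genes called, setd7 included (log2 change -1.11, adjusted p = 0.0168).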

Other observations

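Of the 10 protein-coding genes nearest to setd7 in the order of the RefSeq gene table (GRCz12tu), 5 on each side, 3 were tested and 0 were called by limma, edgeR or DESeq2, with 0 at an unadjusted limma p under 0.05. The limma shares over all genes tested were 5.17% and 19.1%. The acetyltransferase subunit gene naa15a was at 685 ± 101 normalized counts in WT against 604 ± 57.4 in the stl888-labelled ones (log2 difference -0.18, adjusted p = 0.798). The neighbour mgst2 was at 82.4 ± 48.6 and 26.1 ± 5.36 (log2 difference -1.38, adjusted p = 0.557), and the crystallin gene cryba1l1 at 139 ± 91.5 and 148 ± 206, where 1 stl888-labelled library was at 0 and the log2 difference of -1.99, which was not called, has the opposite sign to the difference of the means. These genes were chosen after the data were seen.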
